A study of Mus musculus with 77 samples.

Results

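The genes described here are those with which the liver makes, conjugates and moves bile acids. They are 10 of the 25266 genes in the deposited count tables and were chosen by symbol for their place in the pathway, not by their values: *Cyp7a1*, *Cyp8b1*, *Cyp27a1*, *Cyp7b1*, *Slc27a5*, *Baat*, *Slc10a1*, *Abcb11*, *Nr1h4* and *Nr0b2*. The study asked how the time of day and the iron regulatory proteins IRP1 and IRP2, which bind iron-responsive elements in mRNAs, together set gene expression in mouse liver. Livers of 24 adult male C57BL/6J mice were taken from mice kept under 12 h light and 12 h dark for at least 8 days with food always available. Each liver gave a library of ribosome-protected fragments (RPFs, the stretches of mRNA that ribosomes cover) and a library of total RNA. There were 8 groups of 3 mice: mice lacking IRP1 (*Aco1*-/-, allele *Aco1* tm1.1Mwh) and their wild-type controls (*Aco1*+/+), and mice lacking IRP2 (*Ireb2*-/-, allele *Ireb2* tm1.2Mwh) and their wild-type controls (*Ireb2*+/+), each at ZT5 (5 h after lights on) and at ZT12 (lights off). The knockouts are deletions in the whole body, so a change in the liver need not begin in hepatocytes. The tissue was whole liver, in which fewer cells of a type and less RNA per cell cannot be told apart.

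Hepatocytes turn cholesterol into bile acids along a classic pathway, which opens with CYP7A1, and an alternative pathway, which opens with CYP27A1. The acids are joined to taurine or glycine, pumped into bile, taken up again in the gut and returned to the hepatocyte through uptake carriers. Bile acids bind the nuclear receptor FXR, which induces SHP and the export pump and so dampens synthesis, and the pathway is well known for daily rhythms tied to feeding.

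All values below are reads on the coding sequence (CDS), as CPM (counts scaled to a common library size) after upper-quartile scaling of the 48 libraries. Totals on the CDS ranged from 852293 to 3993492 counts in the RNA libraries and from 2448915 to 13439600 in the RPF libraries, and the RPF values of a gene therefore usually rest on more reads. The 10 genes all passed the filter on low counts that kept 10696 genes. *Nr0b2* had the fewest reads, between 9 and 174 per RNA library and between 36 and 611 per RPF library, which limits what can be seen of it. A gene is called where edgeR's quasi-likelihood test, adjusted over all 10696 genes by the Benjamini-Hochberg method, gave an adjusted p under 0.05. Its p-values measure the spread between mice. Fold changes are log2 with their standard error (SE). Levels are not per length and were not compared between genes.

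The labels were checked first. *Aco1* RPFs were lower in *Aco1*-/- livers by a log2 fold change of −2.36 (SE 0.15) at ZT5 and −2.35 (SE 0.15) at ZT12, and *Ireb2* RPFs in *Ireb2*-/- livers by −0.98 (SE 0.14) at ZT12 and by almost the same at ZT5 (SE 0.13), all called. The mutant alleles still gave mRNA: *Aco1* RNA in *Aco1*-/- livers was called lower at ZT12 (−0.86, SE 0.15) and was −0.74 (SE 0.15) at ZT5, not called, and *Ireb2* RNA in *Ireb2*-/- livers was called at neither time. The clock genes *Arntl* and *Nr1d1* were lower at ZT12 in RNA by −1.95 (SE 0.28) and −1.89 (SE 0.21), averaged over the genotypes. The other clock genes read, *Dbp* (0.77, SE 0.27) and *Nr1d2* (0.42, SE 0.17), were not called in RNA and were called higher in RPFs. Within single genotypes *Arntl* RNA was called in both groups of the *Aco1* line and in neither of the *Ireb2* line, and *Nr1d1* RNA the other way round. *Dbp* RNA differed by 1.64 and 1.13 in *Aco1*+/+ and *Aco1*-/- livers and by 0.33 and 0.01 in *Ireb2*+/+ and *Ireb2*-/- livers, none called. The difference of the time effect between the lines was not called for any of these clock genes in RNA, RPFs or TE. The RNA and RPF libraries of a mouse matched each other better than any other mouse of the group in 24 of 24 cases. The *Ireb2*+/+ ZT5 liver of replicate 3 lay furthest from its group over all genes. Within the *Aco1* line the *Aco1*-/- ZT12 liver of replicate 3 lay furthest in RNA. In RPFs it did not: its root mean square log2 deviation from the group was 0.235 over 2171 genes. That of *Aco1*+/+ ZT5 replicate 3 was 0.284, and that of *Aco1*-/- ZT5 replicate 3 was 0.265. Results that rest on either of the livers first named are given with and without it, here or among the further observations.

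Time of day was the comparison in which bile acid genes moved. Averaged over the 4 genotypes (12 livers at ZT5 and 12 at ZT12), RNA of the export pump *Abcb11* and of the sterol 12α-hydroxylase *Cyp8b1* was lower at ZT12, and RNA of the rate-limiting enzyme *Cyp7a1* and of the receptor *Nr1h4* was higher. The same 4 genes were called in RPFs in the same directions, with the uptake carrier *Slc10a1* added as higher at ZT12. So 4 of 10 genes were called in RNA (2 higher, 2 lower) and 5 of 10 in RPFs (3 higher, 2 lower), where 22.3% of all genes were called in RNA and 31.8% in RPFs. The median log2 fold change of the 10 genes was −0.05 in RNA and 0.03 in RPFs, beside −0.04 in both over all genes. *Cyp27a1*, *Cyp7b1*, *Slc27a5*, *Baat* and *Nr0b2* were not called in either.

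**Figure D1:**
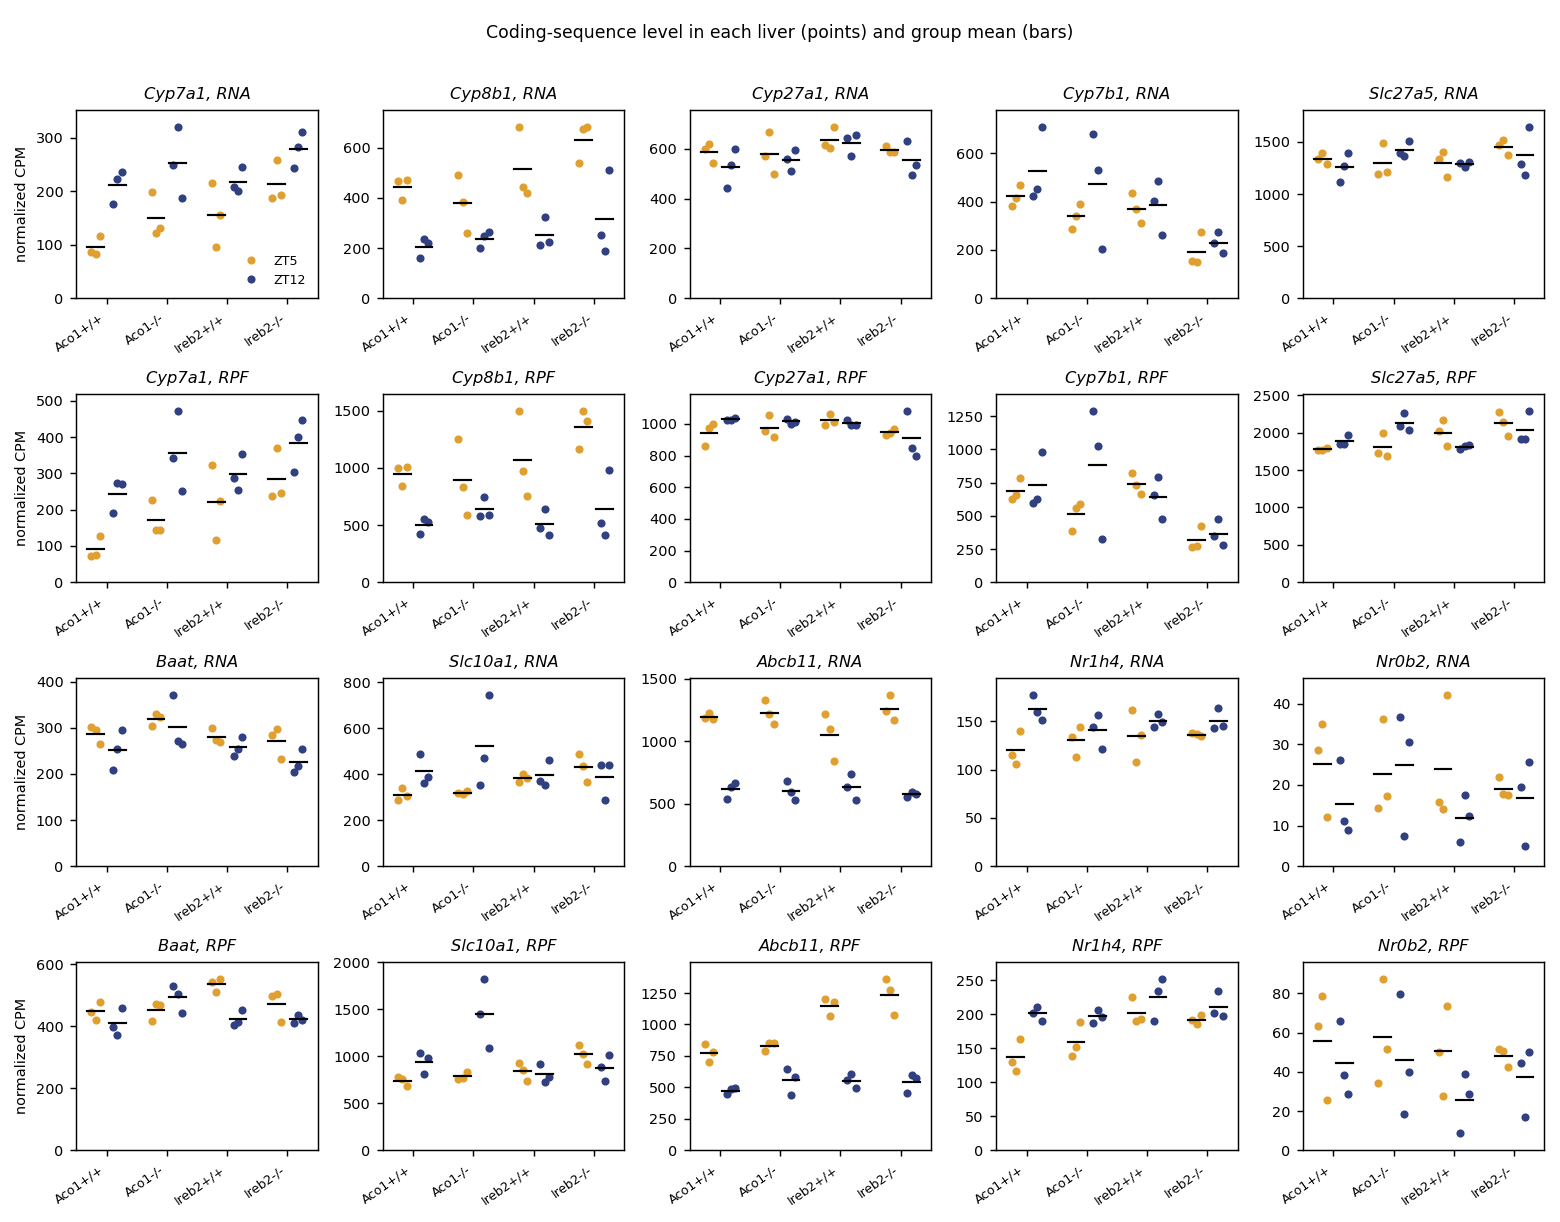
CDS reads (CPM) of the 10 genes in each of the 24 livers by genotype, with the RNA panel of each gene above its RPF panel, ZT5 in amber and ZT12 in blue. Short bars are means of 3 livers and each vertical axis starts at 0. For *Abcb11* RNA the ZT5 livers sit between 839.5 and 1369.5 CPM and the ZT12 livers between 528 and 736 CPM.

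*Cyp7a1* (chr4:6265612-6275632, GRCm38) encodes cholesterol 7α-hydroxylase, the enzyme that opens the classic pathway and sets its rate. In *Aco1*+/+ livers its RNA was 87.4, 82.1 and 116 CPM at ZT5 and 177, 223 and 237 CPM at ZT12. In *Aco1*-/- livers it was 199, 121.7 and 131.2 CPM at ZT5 and 250.3, 321 and 187 CPM at ZT12. The control groups did not overlap, and of the knockouts 1 liver at ZT12 lay below the highest at ZT5. *Ireb2*+/+ livers gave 216, 96.3 and 156 CPM at ZT5 and 208, 201 and 245 CPM at ZT12. *Ireb2*-/- livers gave 189, 259 and 194 CPM at ZT5 and 243, 283 and 311 CPM at ZT12. Both *Ireb2* genotypes thus overlapped between the times, with higher means at ZT12. Averaged over genotypes *Cyp7a1* rose 1.62-fold in RNA (log2 0.69, SE 0.13, adjusted p = 0.000517) and 1.78-fold in RPFs (log2 0.83, SE 0.17, adjusted p = 0.00109). The two-sided exact permutation test over the 160000 arrangements within genotypes gave p = 0.000175 for RNA and p = 0.000275 for RPFs. Averaged within the lines the rise was called in the *Aco1* line (RNA 0.96, SE 0.15; RPFs 1.24, SE 0.20) and not in the *Ireb2* line (RNA 0.43, SE 0.16, adjusted p = 0.13; RPFs 0.43, SE 0.25, adjusted p = 0.285).

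Within single genotypes the rise of *Cyp7a1* RNA was called in *Aco1* controls, at 1.17 (SE 0.21), and knockouts, at 0.76 (SE 0.20). The values of 0.47 (SE 0.23) in *Ireb2* controls and 0.38 (SE 0.23) in *Ireb2* knockouts were not called, but without *Ireb2*+/+ ZT5 replicate 1 (216 CPM) the former was 0.79 and called (adjusted p = 0.036). Its RPFs in *Aco1*+/+ livers were 73.4, 75.2 and 129 CPM at ZT5 and 189.6, 272 and 271 CPM at ZT12, and in *Aco1*-/- livers 228, 143 and 143 CPM and 344, 472 and 252 CPM. Neither pair of groups overlapped, and the log2 rises were 1.42 (SE 0.28) and 1.05 (SE 0.27). The difference of the *Cyp7a1* rise between the lines was itself not called (RNA 0.54, SE 0.25, adjusted p = 0.569; RPFs 0.80, SE 0.34, adjusted p = 0.203). The calls in *Aco1*-/- livers were lost in RNA and in RPFs when any 1 of 4 livers was left out (ZT12 replicate 1 or 2, ZT5 replicate 2 or 3), with values down to 0.53 in RNA and 0.80 in RPFs, and the RPF call in controls was lost without ZT5 replicate 2 (1.29, adjusted p = 0.0557). The RNA call in *Aco1*-/- livers was also lost with all 24 mice in one fit (adjusted p = 0.0923), with all count columns (adjusted p = 0.139) and with only the 6 livers compared (adjusted p = 0.0528). Of its RNA reads 47.6% fell in the column read as the 3′ UTR and are not in these values.

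*Cyp8b1* (chr9:121914356-121916305) encodes sterol 12α-hydroxylase, which commits intermediates to cholic acid. Its RNA was 467, 394 and 471 CPM at ZT5 and 159.9, 235 and 219 CPM at ZT12 in *Aco1*+/+ livers, and 491, 385 and 261 CPM against 199, 249.6 and 262 CPM in *Aco1*-/- livers. In *Ireb2*+/+ livers it was 683, 442 and 418 CPM at ZT5 and 214, 322 and 223 CPM at ZT12. In *Ireb2*-/- livers it was 539.9, 674 and 682 CPM at ZT5 and 253, 188 and 509.8 CPM at ZT12. The times did not overlap in 3 genotypes, and in *Aco1*-/- livers 1 ZT12 value lay just above the lowest at ZT5. Of the 12 ZT12 livers 9 lay below every ZT5 liver. Averaged over genotypes *Cyp8b1* fell 1.93-fold in RNA (log2 −0.95, SE 0.16, adjusted p = 0.000279; exact permutation p = 2.5e-05) and 1.86-fold in RPFs (−0.89, SE 0.16, adjusted p = 0.00028; exact permutation p = 5e-05). RPF levels were roughly parallel, 586 to 1498 CPM at ZT5 and 411 to 984 CPM at ZT12.

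By genotype the log2 fall of *Cyp8b1* RNA was −1.11 (SE 0.19) in *Aco1*+/+ and −0.67 (SE 0.18) in *Aco1*-/- livers, both called. It was −1.02 (SE 0.37) and −1.0 (SE 0.37) in *Ireb2*+/+ and *Ireb2*-/- livers, with wider spread and not called. With only the 6 livers compared the *Ireb2*+/+ value was called (−1.02, adjusted p = 0.0359). Averaged within the *Ireb2* line the fall was −1.01 (SE 0.26, adjusted p = 0.0529) in RNA, not called, and −1.08 (SE 0.26, adjusted p = 0.0238) in RPFs, called. In *Ireb2*-/- livers 1 sample set that spread: without ZT12 replicate 3 (509.8 CPM) the values were −1.52 (adjusted p = 0.00608) in RNA and −1.55 (adjusted p = 0.0269) in RPFs, and the *Ireb2*+/+ values were then also called (−1.02, adjusted p = 0.0256; RPFs −1.08, adjusted p = 0.0446). The RNA call in *Aco1*-/- livers was lost without any 1 of 5 of its 6 livers, and was −0.44 (adjusted p = 0.218) without ZT5 replicate 1. It was also lost with all 24 mice in one fit (−0.67, adjusted p = 0.248), with all count columns (−0.44, adjusted p = 0.11) and with only the 6 livers compared (−0.67, adjusted p = 0.0551). Its RPFs were called in *Aco1*+/+ livers (−0.92, SE 0.21, adjusted p = 0.0139), but not without ZT5 replicate 1 (adjusted p = 0.066) or ZT12 replicate 1 (adjusted p = 0.0764), nor with all 24 mice in one fit (adjusted p = 0.0723). In *Aco1*-/- livers the RPF value was −0.48 (SE 0.21, adjusted p = 0.147), and −0.71 (adjusted p = 0.0128) without ZT5 replicate 3.

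The alternative pathway showed no call for time of day. *Cyp27a1* (chr1:74713148-74737897), the mitochondrial sterol 27-hydroxylase that opens it, varied little: its RNA ranged from 443 to 687 CPM and its RPFs from 799 to 1081 CPM over all 24 livers. ZT12 against ZT5 gave −0.09 (SE 0.06) in RNA and 0.02 (SE 0.05) in RPFs. *Cyp7b1* (chr3:18071944-18243890) encodes the oxysterol 7α-hydroxylase that follows CYP27A1. Its averaged time effect was 0.27 (SE 0.18, adjusted p = 0.308) in RNA and 0.21 (SE 0.18, adjusted p = 0.411) in RPFs. The widest spread was in *Aco1*-/- livers at ZT12, which gave 679, 531 and 204 CPM in RNA and 1289.7, 1024 and 328 CPM in RPFs, against 288, 338 and 390.3 CPM and 389, 561 and 591 CPM at ZT5. The ZT12 liver of replicate 3, which stands apart in RNA as described above, was below every ZT5 liver and the others of its group were above. Without it the rise was called, at 0.83 (SE 0.19, adjusted p = 0.0124) in RNA and 1.17 (SE 0.22, adjusted p = 0.00301) in RPFs, instead of 0.46 (SE 0.40) and 0.78 (SE 0.42).

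The conjugating enzymes were not called for time of day averaged over the 4 genotypes. *Slc27a5* (chr7:12988346-12998192) encodes the bile acyl-CoA synthetase that activates bile acids, and *Baat* (chr4:49489416-49507915) the transferase that joins them to taurine or glycine. *Slc27a5* RNA lay between 1116 and 1643 CPM and its RPFs between 1686 and 2290 CPM, with time effects of −0.01 (SE 0.06) and 0.03 (SE 0.05). *Baat* RNA lay between 204 and 371 CPM and was −0.17 (SE 0.07, adjusted p = 0.0768) at ZT12. *Baat* RPFs lay between 373 and 553 CPM and were −0.12 (SE 0.06, adjusted p = 0.0889). The *Baat* RNA value was called when 1 of 4 single livers was left out: *Aco1*-/- ZT12 replicate 1 (−0.21, adjusted p = 0.0219), *Aco1*+/+ ZT12 replicate 3 (−0.20, adjusted p = 0.0375), *Ireb2*-/- ZT12 replicate 3 (−0.19, adjusted p = 0.0466) or *Ireb2*-/- ZT5 replicate 3 (−0.19, adjusted p = 0.0477). *Baat* RPFs in *Ireb2*+/+ livers were −0.34 (SE 0.10, adjusted p = 0.0536), just short of a call, and were called by DESeq2 (−0.31, adjusted p = 0.0344) and without *Ireb2*-/- ZT12 replicate 2 or 3, which enter that fit's spread. Averaged within the *Ireb2* line alone *Baat* RPFs were called lower at ZT12 (−0.25, SE 0.07, adjusted p = 0.0238), and within the *Aco1* line its value was not called (adjusted p = 1.0).

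*Abcb11* (chr2:69238282-69342616) encodes BSEP, the pump that exports bile salts across the canalicular membrane into bile, and had the smallest adjusted p of the 10 genes. Its RNA was 1184, 1227 and 1179 CPM at ZT5 and 541, 637 and 663 CPM at ZT12 in *Aco1*+/+ livers. In *Aco1*-/- livers it was 1329.5, 1219 and 1134 CPM at ZT5 and 682, 594 and 533 CPM at ZT12. In the *Aco1* line the lowest ZT5 liver, at 1134 CPM, was far above the highest ZT12 liver, at 682 CPM. The *Ireb2*+/+ livers gave 1214, 1097 and 839.5 CPM at ZT5 and 631, 736 and 528 CPM at ZT12. The *Ireb2*-/- livers gave 1239, 1369.5 and 1169 CPM at ZT5 and 557, 592 and 579 CPM at ZT12. All 12 ZT12 livers lay below all 12 ZT5 livers. RNA fell 1.95-fold on average (log2 −0.96, SE 0.07, adjusted p = 3.00e-14) and RPFs 1.84-fold (−0.88, SE 0.07, adjusted p = 9.18e-11). Both exact permutation tests gave p = 1.25e-05, the smallest they can give.

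The fall of *Abcb11* was called in all 4 genotypes, in RNA and in RPFs, and in each the 3 ZT12 livers lay below the 3 ZT5 livers. In RNA it was −0.96 (SE 0.14) in *Aco1*+/+, −1.03 (SE 0.14) in *Aco1*-/-, −0.73 (SE 0.14) in *Ireb2*+/+ and −1.13 (SE 0.14) in *Ireb2*-/- livers. These 4 RNA calls held with any liver of the comparison left out, 6 of 6 times each. In RPFs the values were −0.71 (SE 0.15), −0.58 (SE 0.15), −1.05 (SE 0.12) and −1.19 (SE 0.12) in the same order, and only the *Aco1*-/- call was lost, without ZT12 replicate 2 (−0.44, adjusted p = 0.0791) and when only the 6 livers compared were fitted (−0.58, adjusted p = 0.0513).

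Sequences upstream of the start were read for 6 of the 10 genes in RefSeq (GRCm38.p6) and searched on both strands for TTATGNAA (the D-box of DBP and its relatives), CACGTG (the E-box of clock factors), AGGTCA (a nuclear receptor half-site), that half-site in a pair as a direct repeat (DR1) or an inverted repeat (IR1) with 1 base between, and TATAAA. Both pairs also count as half-sites. Those of *Abcb11* and *Cyp8b1* are shown because these genes fell together. They are the 250 bases before the start at chr2:69342617-69342866 and chr9:121916306-121916555, both on the minus strand, read 5′ to 3′, with motifs in capitals:
Abcb11: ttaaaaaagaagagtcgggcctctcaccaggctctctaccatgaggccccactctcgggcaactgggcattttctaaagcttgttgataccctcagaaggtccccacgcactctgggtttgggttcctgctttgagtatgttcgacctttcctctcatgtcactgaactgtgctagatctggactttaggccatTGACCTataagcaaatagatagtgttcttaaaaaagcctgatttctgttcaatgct
Cyp8b1: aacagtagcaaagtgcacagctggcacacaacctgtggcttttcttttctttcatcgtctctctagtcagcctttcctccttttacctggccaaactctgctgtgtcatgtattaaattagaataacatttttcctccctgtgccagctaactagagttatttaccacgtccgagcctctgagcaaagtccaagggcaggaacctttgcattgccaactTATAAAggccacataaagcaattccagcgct

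The capitals in *Abcb11* are a half-site on the opposite strand, 56 to 51 bases before the start, and in *Cyp8b1* a TATAAA, 31 to 26 bases before it. The 2 sequences shared none of the motifs searched. Of the other sequences *Nr1h4* held a half-site, *Slc10a1* a half-site before 1 of its 2 start sites and a TATAAA before the other, *Cyp27a1* a D-box, and *Nr0b2* an E-box and a TATAAA. These are matches of letters only: of 32851 mouse promoter windows of this length 4607 held the half-site, and the shares were 12.4% for TATAAA, 6.02% for the E-box, 3.07% for the D-box, 0.0335% for DR1 and 0.00609% for IR1.

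*Slc10a1* (chr12:80953185-80968705) encodes NTCP, the sodium-dependent carrier that takes conjugated bile acids back from blood. Its RPFs were 777, 755 and 686 CPM at ZT5 and 1039, 806 and 982 CPM at ZT12 in *Aco1*+/+ livers, and 757, 768 and 832 CPM against 1446, 1822 and 1084 CPM in *Aco1*-/- livers. In the *Aco1* line every ZT12 value lay above its genotype's ZT5 values. *Ireb2*+/+ livers gave 928, 856 and 742 CPM at ZT5 and 919.6, 731 and 781 CPM at ZT12. *Ireb2*-/- livers gave 1115, 1027 and 919.7 CPM at ZT5 and 884, 735 and 1011 CPM at ZT12. In the *Ireb2* line the times overlapped and the means were lower at ZT12. The averaged effect was 0.24 (SE 0.08, adjusted p = 0.0161; exact permutation p = 0.0753) in RPFs, called by edgeR, and 0.26 (SE 0.10, adjusted p = 0.0566) in RNA, not called. The RNA value was called under TMM scaling (adjusted p = 0.0257), by DESeq2 (adjusted p = 0.0233), with all count columns (adjusted p = 0.0371) and without *Aco1*-/- ZT12 replicate 1 (0.31, adjusted p = 0.00554), *Ireb2*-/- ZT12 replicate 2 (0.30, adjusted p = 0.0132), *Ireb2*-/- ZT5 replicate 1, *Aco1*+/+ ZT12 replicate 2 or *Ireb2*+/+ ZT12 replicate 2 (0.28 each, adjusted p up to 0.05).

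By genotype *Slc10a1* was called in *Aco1*-/- livers, at 0.89 (SE 0.16, adjusted p = 0.00222) in RPFs and 0.72 (SE 0.19, adjusted p = 0.0246) in RNA. In *Aco1*+/+ livers the values were 0.35 (SE 0.16, adjusted p = 0.234) in RPFs and 0.40 (SE 0.19, adjusted p = 0.226) in RNA, the latter called with only the 6 livers compared (adjusted p = 0.0483). RNA of the *Aco1*-/- livers was 319.8, 315 and 326 CPM at ZT5 and 354, 472 and 745 CPM at ZT12. The RNA call rested on the liver at 745 CPM, ZT12 replicate 3: without it the value was 0.38 (adjusted p = 0.237), and it was also lost without any 1 of the ZT5 livers and with only the 6 livers compared (adjusted p = 0.0607). The RPF call held with any of the 6 livers left out, between 0.69 and 1.06.

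Of the regulators, *Nr1h4* (chr10:89454234-89533645) encodes FXR, the bile acid receptor, and *Nr0b2* (chr4:133553376-133556686) SHP, the corepressor that FXR induces. *Nr1h4* RPFs were 129, 117 and 163 CPM at ZT5 and 202, 211 and 191 CPM at ZT12 in *Aco1*+/+ livers, and 139, 151 and 189 CPM against 187, 207 and 196 CPM in *Aco1*-/- livers. In *Ireb2*+/+ livers they were 225, 189.7 and 193 CPM at ZT5 and 189, 235 and 252 CPM at ZT12, and in *Ireb2*-/- livers 191, 185 and 198 CPM against 202, 235 and 197 CPM. Only the *Aco1*+/+ groups were apart. Averaged, *Nr1h4* rose by 0.29 (SE 0.07, adjusted p = 0.00156; exact permutation p = 0.000737) in RPFs and 0.21 (SE 0.07, adjusted p = 0.027; exact permutation p = 0.00576) in RNA, a change of 1.22-fold and 1.16-fold. Within the lines its RPFs were 0.43 (SE 0.11, adjusted p = 0.00692) in the *Aco1* line and 0.15 (SE 0.09, adjusted p = 0.258) in the *Ireb2* line, and its RNA was called in neither (0.28, adjusted p = 0.0734, and 0.15, adjusted p = 0.421). The RNA call held without 18 of 24 livers, and was lost with the first sequencing run alone (0.21, adjusted p = 0.0721). It was lost, at values from 0.18 to 0.20 and adjusted p up to 0.0646, without *Aco1*-/- ZT12 or ZT5 replicate 2, *Aco1*+/+ ZT12 replicate 1 or ZT5 replicate 2, *Ireb2*-/- ZT12 replicate 2 or *Ireb2*+/+ ZT5 replicate 2.

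Within *Aco1*+/+ livers *Nr1h4* RPFs were called (0.57, SE 0.15, adjusted p = 0.0288), a call that held without only 1 of the 6 livers (ZT5 replicate 3) and was lost without any other, at values from 0.47 to 0.60. Its RNA there, 115, 106 and 140.1 CPM at ZT5 and 177, 159 and 152 CPM at ZT12, did not overlap either (0.44, SE 0.15, adjusted p = 0.0671), and was called without *Aco1*+/+ ZT5 replicate 3 (0.56, adjusted p = 0.0274) or *Aco1*-/- ZT12 replicate 3 (0.45, adjusted p = 0.0434), with all 24 mice in one fit (0.44, adjusted p = 0.0438) and with only the 6 livers compared (0.45, adjusted p = 0.0337).

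*Nr0b2* varied more than any other of the genes: its RNA lay between 4.90 and 42.1 CPM and its RPFs between 8.64 and 87.4 CPM, a spread found within groups as well. *Ireb2*-/- livers at ZT12, for example, gave 19.5, 4.90 and 25.6 CPM in RNA and 44.5, 17.0 and 50.2 CPM in RPFs, in the same order in both. Its time effect was −0.49 (SE 0.33, adjusted p = 0.328) in RNA and −0.50 (SE 0.30, adjusted p = 0.23) in RPFs, and the 95% interval of the latter ran from −1.09 to 0.09.

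**Figure D2:**
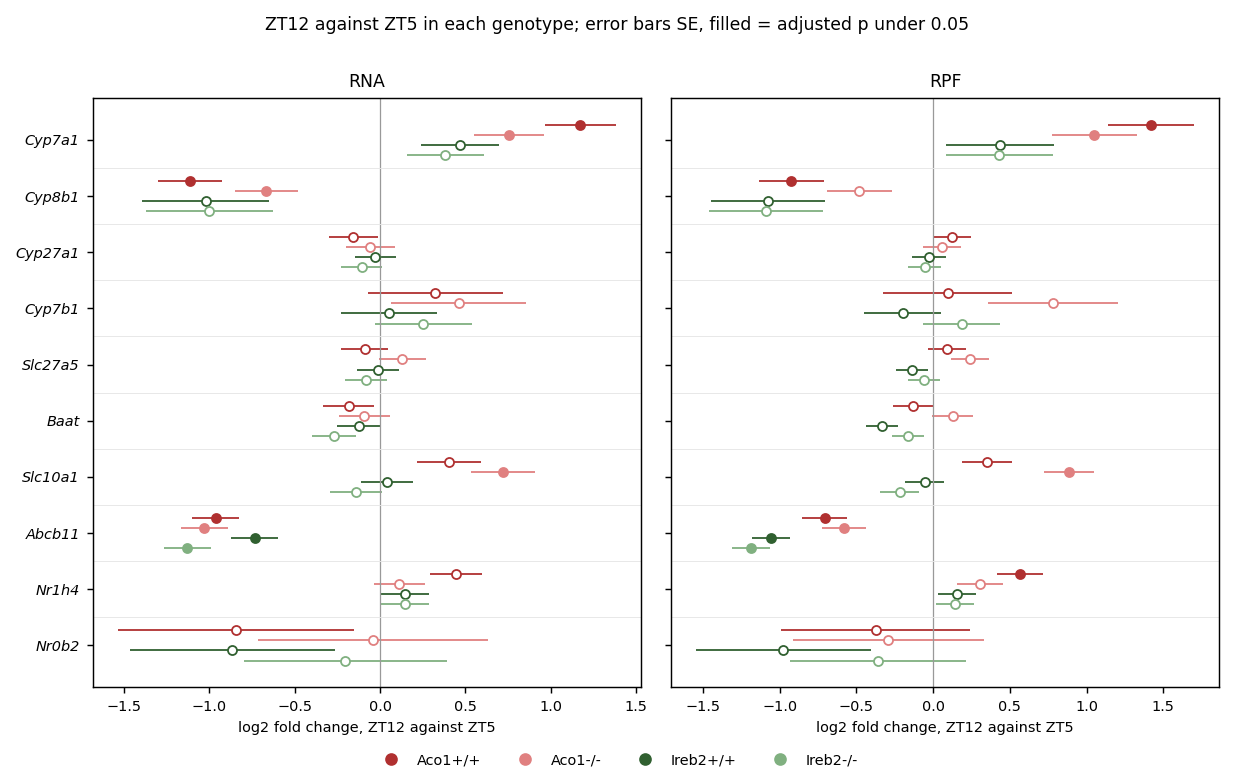
Log2 fold change of ZT12 against ZT5 for each gene in the 4 genotypes (colours), RNA left and RPFs right, with SE as error bars and filled points where the adjusted p was under 0.05. *Abcb11* is filled and below 0 in all 4 genotypes in both panels, whereas *Cyp7a1* is filled in the *Aco1* genotypes only.

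Counted over the genotypes, 9 of 40 RNA tests were called, among 4 genes, and 9 of 40 RPF tests, among 5 genes. In RNA they were 3 of 10 in *Aco1*+/+ (7.05% of all genes), 4 of 10 in *Aco1*-/- (5.15%), 1 of 10 in *Ireb2*+/+ (2.29%) and 1 of 10 in *Ireb2*-/- livers (2.77%). In RPFs they were 4 of 10 in *Aco1*+/+ (6.64% of all genes), 3 of 10 in *Aco1*-/- (12.1%), 1 of 10 in *Ireb2*+/+ (7.53%) and 1 of 10 in *Ireb2*-/- livers (5.73%). A comparison of 3 with 3 livers cannot go below p = 0.1 in an exact permutation test, so these calls rest on the spread that edgeR shares among genes and groups.

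Because the *Aco1* and *Ireb2* lines gave different counts, the difference of the time effect between lines was tested directly, a comparison added after the values had been seen. In RNA 0 of 10 genes were called (0.00935% of all genes). At an unadjusted p under 0.05 there were 2 of 10, and 932 of all 10696 genes. In RPFs 2 of 10 were called (3.19% of all genes). *Slc10a1* was higher at ZT12 in the *Aco1* line (0.62, SE 0.12) and −0.14 (SE 0.09) in the *Ireb2* line, a difference of 0.75 (SE 0.15, adjusted p = 0.00777) that was called without any 1 of the 24 livers. *Abcb11* fell in both lines, by −0.64 (SE 0.10) in the *Aco1* line and −1.12 (SE 0.09) in the *Ireb2* line, a difference of 0.48 (SE 0.13, adjusted p = 0.0473). That call held without only 7 of the 24 livers, with values between 0.41 and 0.55, and was lost without the filter on low counts (0.47, adjusted p = 0.051).

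The *Abcb11* difference lay at ZT5. Its RPFs there were 845, 702 and 778 CPM in *Aco1*+/+ and 791, 853 and 854 CPM in *Aco1*-/- livers, but 1200.2, 1064 and 1180.1 CPM in *Ireb2*+/+ and 1362, 1274 and 1075 CPM in *Ireb2*-/- livers. All 6 livers of the *Ireb2* line were above all 6 of the *Aco1* line at ZT5, while at ZT12 the lines overlapped, with all 12 livers between 439.6 and 649 CPM, and RNA overlapped at both times. All 10 genes had a positive difference in RPFs (*Aco1* minus *Ireb2* line), with a median of 0.36 beside −0.01 over all genes. Each knockout had its own matched controls, and the line and any difference in breeding or handling between lines cannot be told apart. Over the same difference in RPFs the median was 0.52 for 4 pericentral hepatocyte markers, 0.11 for 4 periportal ones and −0.26 for 5 general hepatocyte markers, of which *Serpina1c* was called (−0.64, SE 0.16, adjusted p = 0.0231). It was −0.355 for Kupffer, −0.215 for endothelial, −0.151 for cholangiocyte, 0.09 for stellate and 0.373 for erythroid markers, with none called. Their part in the result was not tested.

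Loss of either IRP gave no call among the 10 genes in any of 40 RNA, 40 RPF and 40 TE tests by edgeR's test. At an unadjusted p under 0.05 there were 3, 5 and 4. Of all 10696 genes, 399 to 819 per comparison had such a p in RNA, 298 to 1355 in RPFs and 272 to 750 in TE. DESeq2 called 2 of the 40 RPF tests. Its share over all genes is not given here, and the shares that follow are those of edgeR. Few genes were called anywhere by edgeR. In RNA 0.0% of all genes were called for *Aco1*-/- at ZT5 and 0.00935% at ZT12, and 0.00935% and 0.0187% for *Ireb2*-/-. In RPFs it was 0.00935% and 0.299% for *Aco1*-/-, and 0.0654% and 0.028% for *Ireb2*-/-. The difference of the knockout effect between ZT12 and ZT5 was called for no member (0 of 20 RNA tests and 0 of 20 RPF tests, with 0 and 1 at an unadjusted p under 0.05), and 0.0% of all genes were called in either line in RNA and in RPFs. In the *Aco1* and *Ireb2* lines 628 and 413 of all 10696 genes had such an unadjusted p in RNA, and 590 and 426 in RPFs.

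**Figure D3:**
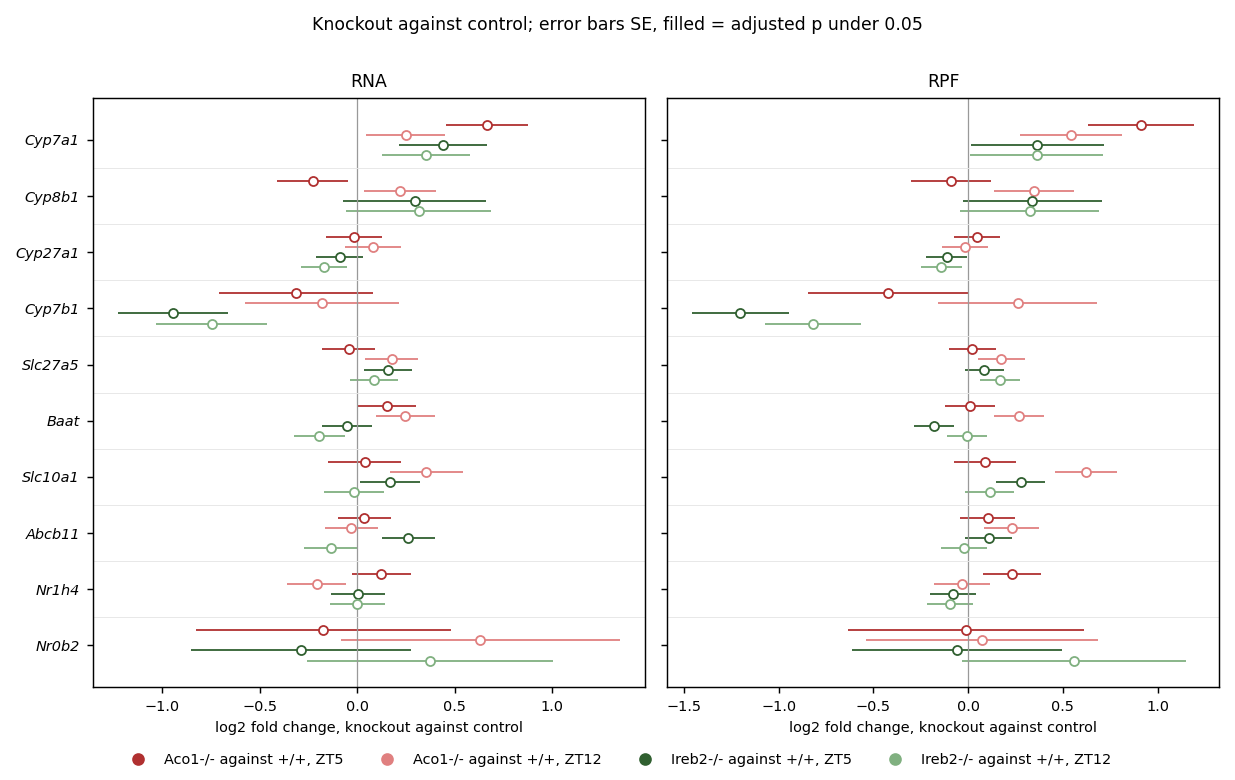
Log2 fold change of knockout against control for each gene at ZT5 and ZT12 in the 2 lines (colours), RNA left and RPFs right, with SE as error bars. All points are open, since no adjusted p was under 0.05. *Cyp7b1* in *Ireb2*-/- livers lies furthest below 0, at −1.20 in RPFs at ZT5.

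The lowest of these values belonged to *Cyp7b1* in the *Ireb2* line. Its RPFs at ZT5 were 819.5, 731 and 667 CPM in *Ireb2*+/+ and 265, 272 and 427 CPM in *Ireb2*-/- livers, and at ZT12 661, 792 and 479.7 CPM against 345, 473 and 279 CPM. The groups did not overlap at either time. Its RNA at ZT5 was 433, 369 and 310.4 CPM in controls and 154, 151 and 272 CPM in knockouts, and at ZT12 404, 487 and 263 CPM against 228, 273 and 188 CPM, where 1 control lay below the highest knockout. The log2 fold change in RPFs was −1.20 (SE 0.25, adjusted p = 0.294) at ZT5 and −0.82 (SE 0.25, adjusted p = 0.465) at ZT12, and in RNA −0.94 (SE 0.28, adjusted p = 0.826) and −0.75 (SE 0.28, adjusted p = 1.0). At ZT5 the RPF value passed the threshold by DESeq2 (−1.23, adjusted p = 0.000149) and without *Ireb2*-/- replicate 3 (−1.46, adjusted p = 0.0497). Over the alternatives its adjusted p ran from 0.000149 to 0.743.

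In the *Aco1* line the smallest unadjusted p belonged to *Cyp7a1* at ZT5 in RNA and to *Slc10a1* at ZT12 in RPFs. *Cyp7a1* in *Aco1*-/- livers at ZT5 lay above all controls, with values given above, by 0.67 (SE 0.21, adjusted p = 1.0) in RNA and 0.91 (SE 0.28, adjusted p = 1.0) in RPFs. *Slc10a1* RPFs in *Aco1*-/- livers at ZT12 lay above all controls by 0.62 (SE 0.16, adjusted p = 0.125). That value was called by DESeq2 (0.62, adjusted p = 0.0406), with all 24 mice in one fit (adjusted p = 0.0358) and without *Aco1*-/- ZT12 replicate 3 (0.79, adjusted p = 0.0174). Its RNA in the same comparison was 0.35 (SE 0.19, adjusted p = 0.684), with a 95% interval from −0.01 to 0.72.

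How closely the knockout effect could be bounded differed between the other genes. *Slc27a5* gave RPF values from 0.02 to 0.18 over the 4 comparisons with SE of 0.10 to 0.12, and *Cyp27a1* from −0.14 to 0.05 with SE of 0.11 to 0.12. *Nr0b2* ran from −0.06 to 0.56 with SE of 0.55 to 0.62, so that a difference of the size of the *Abcb11* time effect would not have been detectable in it at this spread.

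Translational efficiency (TE), the log2 ratio of RPF to RNA CPM in the same liver, placed most of the genes in the upper part of the range. Averaged over 24 livers it was 1.23 ± 0.31 (SD) for *Slc10a1*, 1.23 ± 0.35 for *Nr0b2* and 1.15 ± 0.18 for *Cyp8b1*, above 95.4%, 95.4% and 94.2% of the 9633 genes with such a value. *Cyp27a1* (0.76), *Baat* (0.74), *Cyp7b1* (0.72), *Slc27a5* (0.54), *Nr1h4* (0.43) and *Cyp7a1* (0.32) followed. *Abcb11* was lowest at −0.23 ± 0.30, above 35.1% of genes. The ratio compares reads within a gene, so gene length does not enter it, but differences in how RNA and RPF libraries were made do.

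**Figure D4:**
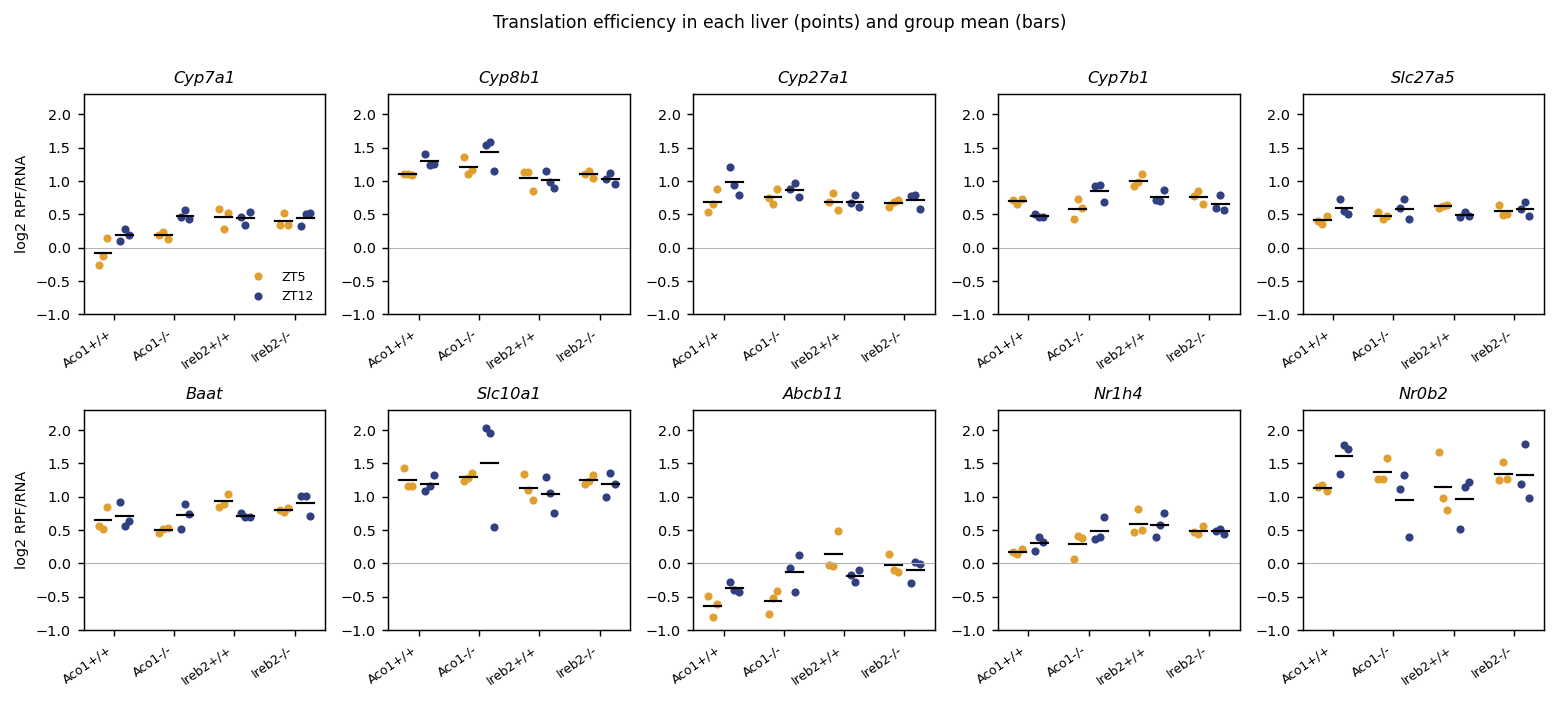
Translational efficiency (log2 RPF/RNA) of the 10 genes in each of the 24 livers by genotype, with ZT5 in amber and ZT12 in blue and means of 3 livers as bars. For *Slc10a1* 2 livers of *Aco1*-/- mice at ZT12 stand at 2.03 and 1.95 and the third at 0.54.

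No member was called in TE for time of day, genotype or their interaction. Averaged over genotypes 0 of 10 were called (0.486% of all genes), with values between −0.08 and 0.15. At an unadjusted p under 0.05 there were 2 of 10, and 1005 of all 10696 genes. The falls of *Abcb11* and *Cyp8b1* and the rise of *Cyp7a1* were called in RNA and in RPFs. Averaged within the lines the time effect on TE of *Abcb11* was 0.35 (SE 0.09) in the *Aco1* line and −0.19 (SE 0.08) in the *Ireb2* line. For *Cyp7a1* it was 0.29 (SE 0.10) and 0.01 (SE 0.07), and for *Cyp8b1* 0.21 (SE 0.09) and −0.05 (SE 0.07), none called. Within genotypes it was 0 of 40 by edgeR and 0 by DESeq2 and limma. By edgeR 0.0187% of all genes were called in *Aco1*+/+, 0.15% in *Aco1*-/-, 0.533% in *Ireb2*+/+ and 0.00935% in *Ireb2*-/- livers. At an unadjusted p under 0.05 there were 8 of 40, and from 483 to 879 of all 10696 genes per genotype. For genotype the shares of all genes were 0.00935% and 0.0935% in the *Aco1* line at ZT5 and ZT12 and 0.00935% and 0.0% in the *Ireb2* line. For the interaction they were 0.028% and 0.0%, and 3 of 20 members' tests had an unadjusted p under 0.05. Of all 10696 genes 508 had such a p in the *Aco1* line and 562 in the *Ireb2* line. The difference of the time effect in TE between lines was called for 0 of 10 genes (0.0841% of all genes). At an unadjusted p under 0.05 there were 4 of 10, and 1050 of all 10696 genes. For *Abcb11* the difference was 0.54 (SE 0.13, adjusted p = 0.0932). That value was called without *Aco1*-/- ZT12 replicate 2 (0.62, adjusted p = 0.0141) or replicate 3 (0.48, adjusted p = 0.0468), with all count columns (0.56, adjusted p = 0.0185) and with the first run alone (0.63, adjusted p = 0.0284).

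The TE of *Slc10a1* depended on a single liver. In *Aco1*-/- livers it was 1.24, 1.28 and 1.35 at ZT5 and 2.03, 1.95 and 0.54 at ZT12, whereas the other 3 genotypes lay between 0.76 and 1.42. So 2 ZT12 livers were above all 21 livers outside their group and the third was below them. The third, replicate 3, had the highest *Slc10a1* RNA (745 CPM) of all livers. Its 2 libraries still matched each other better than those of any other mouse of its group (r = 0.31 across genes, beside −0.04 for the best other mouse), where own matches ran from 0.30 to 0.88 over the 24 mice. With it, ZT12 against ZT5 in *Aco1*-/- livers was 0.20 (SE 0.34, adjusted p = 0.934) and knockout against control at ZT12 0.30 (SE 0.34, adjusted p = 0.943). Without it they were 0.69 (SE 0.12, adjusted p = 0.000175) and 0.79 (SE 0.12, adjusted p = 9.18e-06), and the interaction was 0.75 (SE 0.16, adjusted p = 0.0148), all 3 called, and the difference between lines was 0.40 (adjusted p = 0.0489), each with 2 livers in that group, which are taken to vary like the other groups. *Cyp7b1* in the same comparison of genotypes at ZT12 moved from 0.38 (SE 0.12, adjusted p = 0.404) to 0.46 (SE 0.11, adjusted p = 0.0324) without it.

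Other genes of bile acid metabolism were taken from a list of 37, of which 33 were tested (*Ch25h*, *Slc51a*, *Slc51b* and *Gpbar1* were too low). For time of day 14 were called in RNA (7 higher and 7 lower at ZT12) and 18 in RPFs (11 higher and 7 lower), with medians of 0.09 in both. Over all genes 22.3% were called in RNA and 31.8% in RPFs, the background for these counts and for those of the 3 groups that follow. Among 12 further enzymes 4 were called in both measures, 1 higher and 3 lower. Among 10 transporters it was 3 in RNA (2 higher, 1 lower) and 6 in RPFs (5 higher, 1 lower), and among 11 regulators 7 in RNA (4 higher, 3 lower) and 8 in RPFs (5 higher, 3 lower). In TE, in the knockout comparisons and in the interaction 0 of the 33 were called by edgeR.

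The 8 with the smallest adjusted p in RNA fell into these 3 groups. *Hsd3b7*, the dehydrogenase that follows 7α-hydroxylation in both pathways, fell most, from 19.5 ± 5.75 CPM (SD, n = 12) at ZT5 to 7.39 ± 2.50 at ZT12 (−1.45, SE 0.15, adjusted p = 1.64e-09). The peroxisomal side-chain enzymes *Acox2* (−0.43, SE 0.07) and *Amacr* (−0.38, SE 0.07) also fell. *Abcg5*, a subunit of the canalicular sterol exporter, rose from 76.5 ± 16.7 to 116 ± 19.5 CPM (0.60, SE 0.10). Of regulators, the xenobiotic receptor gene *Nr1i2* rose (0.56, SE 0.08) and the hepatocyte factor *Hnf4a* rose (0.39, SE 0.08). *Klb*, the co-receptor for the gut hormone FGF15 (−0.49, SE 0.08), and *Nr5a2*, the receptor that activates *Cyp7a1* and *Cyp8b1* (−0.50, SE 0.09), fell. Of the 8 in RPFs, 7 were among these, and *Nr1i3*, the receptor CAR, took the place of *Nr5a2* (0.76, SE 0.14, adjusted p = 0.000365). In the difference between lines 1 of 33 was called, the uptake carrier *Slco1b2* in RPFs (0.54, SE 0.14, adjusted p = 0.0365), a share no higher than the 3.19% of all genes called there.

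**Figure D5:**
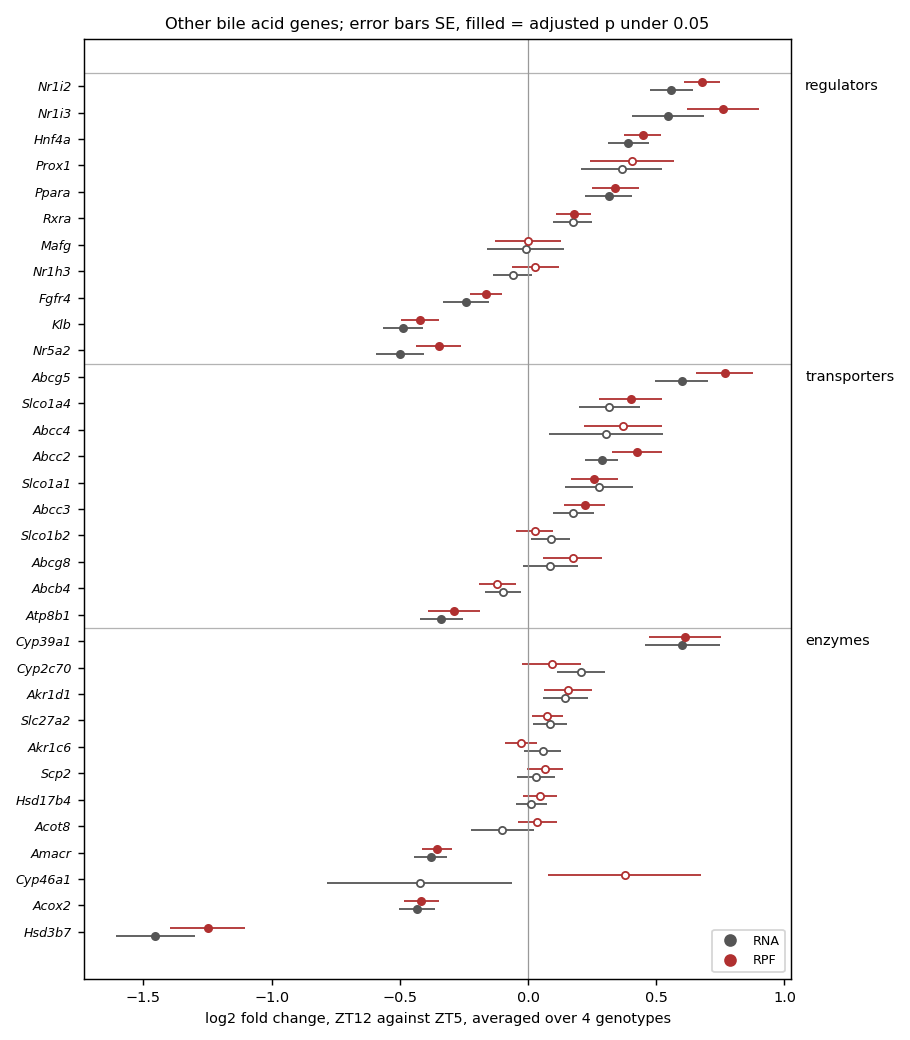
Log2 fold change of ZT12 against ZT5, averaged over the 4 genotypes, for the 33 further bile acid genes in RNA and RPFs, grouped as enzymes, transporters and regulators, with SE as error bars and filled points where the adjusted p was under 0.05. *Hsd3b7* lies furthest below 0, at −1.45 in RNA and −1.25 in RPFs.

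The genes whose RNA followed a member most closely over the 24 livers were read from 6423 genes with a mean of at least 10 CPM, as a description in which the livers share their time of day and scaling. *Abcb11* was followed by *Coq8a* (Pearson r = 0.96), *Psmd11* (0.95), *Clpx* (0.94) and *Aqp8* (0.94). *Cyp8b1* was followed by *Aqp8* (0.87), *Tlcd2* (0.87), *Coq8a* (0.87) and *Sec14l2* (0.87), so that *Coq8a* and *Aqp8* stood on both lists. *Cyp7a1* was followed less closely, by *Wee1* (0.79), *Nhlrc2* (0.78), *Slc25a13* (0.76) and *Gpt2* (0.76).

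Markers of the cells in liver were read beside the time effects. Summed RNA of 5 hepatocyte markers was 90200 to 135000 CPM at ZT5 and 109000 to 148000 CPM at ZT12, with 0 of 5 called, and that of 4 detected cholangiocyte markers was 13.7 to 29.0 and 17.6 to 32.8 CPM. *Slc10a2*, counted there as a cholangiocyte marker, was called higher at ZT12 (0.50, SE 0.12), the other 3 were not. Kupffer (278 to 451 CPM against 228 to 407) and stellate markers (339 to 559 against 399 to 501) had 0 called, and endothelial markers (223 to 330 against 246 to 285) 1 of 4, *Clec4g* (−0.26, SE 0.07). Erythroid markers (69.3 to 205 CPM against 99.1 to 237) had 0 of 4 called. Averaged over genotypes the zonal hepatocyte markers gave few calls. Of 4 pericentral markers *Cyp2e1* was higher (0.34, SE 0.08) and *Oat* lower (−0.41, SE 0.09), and of 4 periportal markers *Hal* was lower (−1.09, SE 0.09). In RPFs *Cyp2e1*, *Oat*, *Hal*, *Slc10a2* and *Clec4g* were called in the same directions, and *Sox9* (−0.74, SE 0.16), *Epcam* (−0.84, SE 0.28), *Pecam1* (−0.25, SE 0.09) and *Alas2* (−0.52, SE 0.17) were called lower and *Alb* (0.20, SE 0.07) and *Sds* (0.41, SE 0.13) higher. *Alas2*, a heme synthesis gene listed here as erythroid, has an mRNA that carries an iron-responsive element. It differed by −0.06 (SE 0.14) in RNA and was called lower in TE (−0.48, SE 0.08). The paper reports that its translation in liver is rhythmic and most likely stems from hepatocytes, not from blood cells. The other 3 erythroid markers were called in neither RPFs nor TE. By genotype, pericentral RNA had 2 of 4 called, both higher, in *Aco1*+/+ livers (median 0.429, 7.05% of all genes called). It had 0 called in *Aco1*-/- (0.30), *Ireb2*+/+ (−0.409) and *Ireb2*-/- livers (−0.081). Erythroid RNA medians in the same order were −0.418, 1.90, −0.284 and 0.098, with 0 called. The part of these markers in the time effects was not tested.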

How the data were processed

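Total RNA and RPF libraries of 24 livers (48 libraries, 77 count files) were analysed. The authors trimmed reads with cutadapt 3.5, removed rRNA and tRNA reads with Bowtie2 and mapped the rest with STAR 2.70f to GRCm38; the deposited values are raw counts per gene, in columns whose meaning, counting tool and strand setting are not given in the sources used here, and the third was read from the values as CDS. Sequencing runs of a library were summed. Low genes were removed with filterByExpr and all 48 libraries were scaled to their upper quartiles. Quasi-likelihood tests of edgeR 4.0.16 (R 4.3.3) were fitted on the 12 mice of each line, or on all 24 for averaged effects and differences between lines; TE entered 1 model of both libraries of each mouse. Single values were also tested by two-sided exact permutation (Python 3.11.15, NumPy 2.4.6). Alternatives were TMM, DESeq2 1.42.0, limma 3.58.1, no filter, the first run, all columns, other sets of mice, a replicate block and single livers left out. Reads shared with paralogs could not be separated. Replicate libraries differed by more than counting noise. The genes, lists and tests were chosen with earlier results of these data known. Named are the 10 genes, and of the other bile acid genes those with a call, up to 8 by adjusted p; for 3 members the 4 most alike genes.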

Additional observations from a re-analysis of the deposited data

Results flagged for a closer look

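The time effect in RPFs differed between the *Aco1* and *Ireb2* lines for 2 genes, by the test of the difference. For *Slc10a1* the difference was 0.754 on the log2 scale, and for *Abcb11* 0.476; the comparison was added after the values had been seen. In TE, 2 genes moved in opposite directions in the controls of the lines, with every liver on its own side. They were flagged for this difference, and the share of all genes with such a pattern was not counted. The difference was not tested between the controls alone. For *Slc27a5* the ZT12 against ZT5 effect in *Aco1*+/+ livers (0.18, SE 0.11) minus that in *Ireb2*+/+ livers (−0.13, SE 0.08) was 0.314. For *Abcb11* the same subtraction (0.26, SE 0.13, and −0.33, SE 0.12) gave 0.589. The *Ireb2*+/+ value rested on ZT5 replicate 3, a liver that stands apart, at a TE of 0.49 beside −0.02 and −0.04, and was −0.16 without it. Averaged over both genotypes the difference between lines in TE was 0.19 (SE 0.09, adjusted p = 0.486) for *Slc27a5* and 0.54 (SE 0.13, adjusted p = 0.0932) for *Abcb11*. In TE of *Nr0b2* the effect of *Aco1* loss went up at ZT5 and down at ZT12, a difference of 0.957, whose test as an interaction gave an adjusted p of 0.918; its counts are the lowest of the 10 genes. The value at ZT12 leaned on *Aco1*-/- replicate 3, which stands apart in RNA, at a TE of 0.40 beside 1.12 and 1.32. Without it the genotype effect at ZT12 was −0.38 instead of −0.74, and the interaction −0.59 instead of −0.96.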

How the results depend on the processing

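Of 690 values of the 29 called gene results under alternatives or with a liver left out, 626 kept direction and call, 64 kept direction without the call and 0 reversed. Leaving out single livers moved the counts of called genes as follows (RNA, RPFs, TE): averaged time effect 3 to 6, 5 to 5 and 0 to 0 (4, 5 and 0 with all livers); time within genotypes 6 to 11, 7 to 12 and 0 to 1 (9, 9 and 0); difference between lines 0 to 0, 1 to 2 and 0 to 2 (0, 2 and 0); genotype 0 to 0, 0 to 1 and 0 to 2; interaction 0 to 0, 0 to 0 and 0 to 1. Averaged within the *Ireb2* line alone the time effect was called for 1 gene in RNA and 3 in RPFs. For genotype in RPFs DESeq2 called 2 and all 24 mice in one fit 1. Shares of all genes under the alternatives are not given here. With both livers that stand apart left out, an alternative chosen after seeing the data, the counts were 1 for genotype in RPFs, 2 for genotype, 1 for time within genotypes and 1 for the interaction in TE, and 1 in RPFs and 3 in TE for the difference between lines. That difference gave 1 in RPFs without the filter, and 1 in TE with all columns and with the first run alone. The cause of these changes was not tested. Upper-quartile and TMM scaling shifted the median of all genes by less than 0.1.

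Replicate numbers did not pair the livers: same-number correlations of deviations ran from −0.178 to 0.165 in RNA and from −0.393 to 0.323 in RPFs. With the replicate block 7 and 8 of 40 tests within genotypes were called in RNA and RPFs (lost in *Aco1*-/- were *Cyp7a1* RNA, adjusted p = 0.089, and RPFs, 0.0771, and *Cyp8b1* RNA, 0.0806), and 1 in RPFs and 1 in TE for the difference between lines; averaged counts stayed at 4 and 5. RNA depth limits *Nr0b2* most.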
